A study of Homo sapiens with 2 samples.

Results

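The olfactory receptor genes of chromosome 11 number 172 protein-coding genes, against 228 on the other chromosomes of the reference and 1145 other protein-coding genes on chromosome 11. They were taken from GENCODE release 44 as protein-coding genes whose symbol is OR followed by a family number, subfamily letters and a member number. Genes whose bodies lay under 50 kb apart were joined into a cluster, which gave 26 clusters of at least 2 genes with 159 genes, and 13 genes that stood alone. The widest gap inside a cluster was 45993 bp and the narrowest between clusters was 50338 bp. The median gap was 17528 bp.

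The nucleosome positions came from ARPE-19, an established human retinal pigment epithelium cell line, grown without any labelled treatment or genetic change and sampled in interphase. Chromatin was cut with micrococcal nuclease (MNase), which digests the linker DNA between nucleosomes, and the protected fragments were sequenced. There were 2 samples, labelled only as MNase batches 1 and 2 of ARPE-19, but 1 list of 2634347 single-base positions serves both. No comparison between samples was therefore possible, no value has a replicate error, and each interval below covers counting error only. The list carries no read depth, occupancy or expression, so the identity of the cells was not checked with marker genes, and a nucleosome held in few cells cannot be told apart from one held in many.

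Olfactory receptors are G protein-coupled receptors of the nasal epithelium, where each sensory neuron uses a single receptor gene while the remaining receptor genes are held in silent chromatin. The coding sequence is almost always in 1 exon, and it lies in AT-rich sequence within arrays that grew by gene duplication. Class I receptors (families OR51, OR52 and OR56 here), the kind first described in fish, form 1 group on this chromosome, and class II receptors form the larger group that expanded in land vertebrates. Of the 172 genes, 55 were class I and 117 class II, from 11 families in all. In 171 genes the coding sequence was in 1 exon, with a median coding length of 945 bp over all members, and 100 genes had no other exon in the transcript used.

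The first 200 coding bases of 5 genes show what a called position is at base level. They are OR4C3, OR9G1 and OR52D1, which had the most coding positions per kb, OR51E2, a receptor also known from prostate, and OR5AS1, a gene without a position from the cluster with the fewest per expectation among the large ones. Sequences are hg38, on the coding strand, from chr11:48325022-48325221 (plus) for OR4C3, chr11:5488707-5488906 (plus) for OR52D1, chr11:56700388-56700587 (plus) for OR9G1, chr11:4682512-4682711 (minus) for OR51E2 and chr11:56030419-56030618 (plus) for OR5AS1. All lie in the coding exon, and capitals mark the start codon and each called base.
OR4C3: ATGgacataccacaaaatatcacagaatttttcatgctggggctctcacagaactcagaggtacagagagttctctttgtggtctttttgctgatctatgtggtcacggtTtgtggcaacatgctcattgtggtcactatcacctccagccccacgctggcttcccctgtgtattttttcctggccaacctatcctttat
OR52D1: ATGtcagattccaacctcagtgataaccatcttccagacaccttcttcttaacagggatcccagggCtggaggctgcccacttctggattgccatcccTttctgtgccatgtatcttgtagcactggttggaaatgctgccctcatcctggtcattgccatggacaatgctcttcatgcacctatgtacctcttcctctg
OR9G1: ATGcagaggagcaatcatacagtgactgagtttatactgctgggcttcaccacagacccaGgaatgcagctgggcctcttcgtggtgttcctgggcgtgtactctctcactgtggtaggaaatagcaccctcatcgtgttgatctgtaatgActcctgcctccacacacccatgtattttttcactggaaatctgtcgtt
OR51E2: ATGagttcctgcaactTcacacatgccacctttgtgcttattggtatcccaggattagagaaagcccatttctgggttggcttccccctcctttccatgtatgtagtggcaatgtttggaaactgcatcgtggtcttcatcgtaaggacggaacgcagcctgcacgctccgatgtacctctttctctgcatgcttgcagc
OR5AS1: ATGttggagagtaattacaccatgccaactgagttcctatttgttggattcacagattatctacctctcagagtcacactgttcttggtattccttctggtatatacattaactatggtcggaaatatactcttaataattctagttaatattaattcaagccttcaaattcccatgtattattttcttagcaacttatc
In these stretches OR52D1 had called bases at 67 and 99 counted from the A of the start codon, OR9G1 at 61 and 152, OR4C3 at 111 and OR51E2 at 17. GC content was 50% in OR52D1 and OR51E2, 49.5% in OR9G1, 46% in OR4C3 and 33% in OR5AS1.

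Cluster sequence was sparser in positions than the chromosome as a whole but denser than other chromosome 11 sequence of the same GC content. The 26 clusters held 2600 positions in 3351 kb, or 0.776 per kb, against 0.881 per kb outside them. Their GC content was 37.7%, against 41.6% outside. The GC expectation gives each base the density of chromosome 11 sequence outside the clusters whose surrounding 200 bp fall in the same 2% bin of GC. On that scale 0.632 positions per kb were expected in the clusters, and the observed count was 1.23 times the expected one (95% exact Poisson interval 1.18 to 1.28). Windows of 100 kb elsewhere on the chromosome give a scale of local variation. Each is far smaller than the 3351 kb pooled in the clusters, so single windows scatter more than a pooled value. Among the 712 such windows with a GC content of 35 to 42%, the middle 50% had ratios from 0.862 to 1.23, 24.9% exceeded the value of the clusters, and 55.8% lay above 1 (58.7% when windows under 50% unique sequence were left out). Sequence up to 500 kb either side of the clusters stood at 1.05 (1.03 to 1.07), so the clusters were above their surroundings by 0.22 on the log2 scale (0.16 to 0.29). Without the cluster OR4B1-OR4C5 that difference was 0.15.

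**Figure D1:**
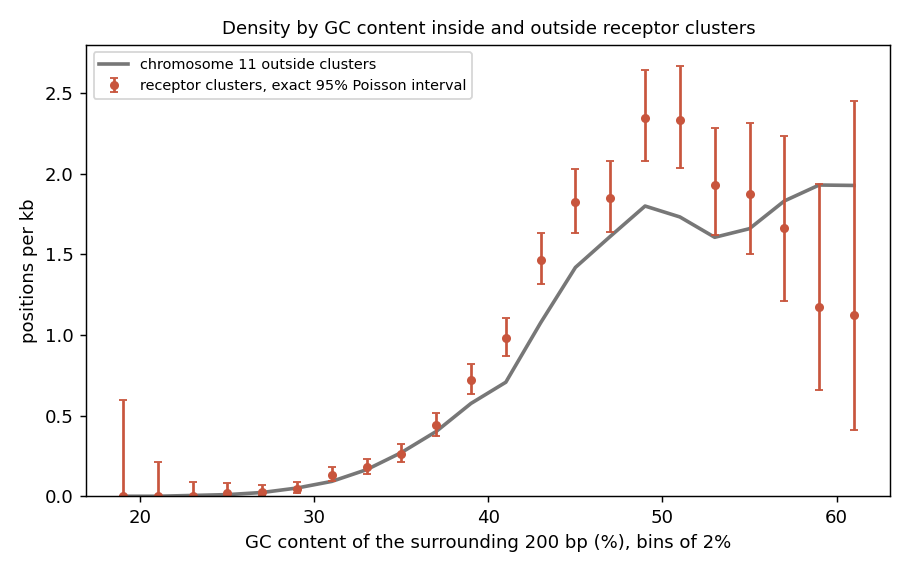
Positions per kb (vertical axis) by GC content of the surrounding 200 bp (horizontal axis, bins of 2%). Points are the receptor clusters with exact 95% Poisson intervals, and the line is chromosome 11 outside them; the points lie above the line in 14 of 22 bins, among them all bins from 36 to 56% GC, and below it in the bins from 56 to 62%.

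Density climbed with GC inside the clusters as it did outside. From 30 to 32% GC the clusters held 0.132 positions per kb and from 48 to 50% they held 2.35, where the rest of the chromosome held 0.0920 and 1.80. The excess over the rest was therefore spread over the middle of the GC range, with ratios of 1.15 to 1.39 in the bins between 38 and 52%. Above 56% GC the clusters had little sequence and fell short, with 15 positions in the bin from 58 to 60% at 0.608 of the density outside. The 150 bp around called positions in the clusters averaged 45.8% GC (SD 6.47, n = 2600 positions), and the 150 bp midway between distant neighbours averaged 39.6% (SD 8.19, n = 804 midpoints). Outside the clusters the same 2 averages were 49.5% and 43.9%, so positions exceeded midpoints by 6.21 percentage points in the clusters and by 5.58 elsewhere.

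Coding exons were the densest compartment in positions per kb, and also the most GC-rich. They held 253 positions in 163 kb, or 1.55 per kb, while the space between genes held 1737 positions in 2413 kb, or 0.720 per kb. The coding exons had 46.2% GC and the space 37.1%. Against sequence of the same GC the coding exons stood at 1.17 (1.03 to 1.33) and the space at 1.23 (1.17 to 1.29). The interval of the coding exons included 1 with the GC curve of all chromosomes (1.09, 0.959 to 1.23), with positions under 100 bp apart merged (1.13, 0.989 to 1.30) and without OR4B1-OR4C5 (1.11, 0.975 to 1.27). The 2.16-fold difference in raw density thereby became a log2 ratio of -0.07 with an interval from -0.26 to 0.12. The width of the GC window decides this: with GC taken over 1000 bp in place of 200, coding exons were 0.34 above the space on the log2 scale. Introns held 303 positions at 0.767 per kb and a ratio of 1.17 (1.04 to 1.31). That interval reached 1 or below in 5 of 24 alternatives, among them GC of 1000 bp (1.11, 0.991 to 1.25) and the GC curve of all chromosomes (1.05, 0.937 to 1.18). Noncoding parts of exons held 157 at 0.798 per kb and 1.40 (1.19 to 1.63). Coding exons and introns differed by 0.01 on the log2 scale (-0.24 to 0.25). Within the 14 clusters of at least 5 genes, which hold 128 genes, the coding exons were above the space in 5, relative to GC.

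The introns included 1 very long case. OR9Q1, an orphan class II receptor, carries 151 kb of intron and held 118 positions there at a ratio of 0.970. This was 37.7% of intron sequence summed gene by gene over the 72 genes with more than 1 exon. The sum counts under both genes the introns of another member (5605 bp, 8 positions) that lie inside those of OR9Q1. Without OR9Q1 the introns of the other genes, these included, stood at 1.37 (1.18 to 1.57). The intron of OR51E2 held 9 positions (0.881 of the expectation) and that of OR51E1 held 10 (1.10). Coding exons of the 100 genes with a single exon had a ratio of 1.12 (0.947 to 1.32), and those of the 72 genes with further exons 1.24 (1.02 to 1.50), which overlap.

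Receptor pseudogenes gave a comparison with sequence of like origin that no longer encodes a receptor. The 185 single-exon receptor pseudogenes of the chromosome held 206 positions at 1.24 per kb, and their ratio to the GC expectation was 1.02 (0.889 to 1.17). Of these pseudogenes 57 lay inside clusters, and sequence outside the clusters supplies the GC expectation. Intact genes and pseudogenes thus also differ in how many lie inside clusters, and these differences cannot be told apart here. The log2 ratio of intact coding exons to pseudogenes, each against its expectation, was 0.20 with an interval from -0.08 to 0.47. It was 0.32 (0.03 to 0.60) when bodies of other protein-coding genes were left out and 0.33 (0.06 to 0.60) with no GC expectation, so whether the interval includes 0 depends on these choices.

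The clusters fell into stretches of the chromosome with different ratios. On the distal short arm, from 4.37 to 7.94 Mb, 67 genes in 10 clusters and 2 alone held 1270 positions at a ratio of 1.32 (1.25 to 1.39). On the proximal long arm, from 54.6 to 59.7 Mb, 72 genes in 10 clusters and 5 alone held 791 positions at 0.944 (0.879 to 1.01). The first of these was 1.40-fold above the second relative to GC (1.28 to 1.53), and in coding exons alone 1.60-fold (1.17 to 2.21). The distal long arm, from 123.754 to 124.583 Mb, held 22 genes with 300 positions and a ratio of 1.48 (1.32 to 1.66). Near the centromere on the short arm, from 48.2 to 50.0338 Mb, 10 genes held 263 positions at 2.00 (1.77 to 2.26), but its 2 clusters lay on opposite sides of 1: OR4B1-OR4C5 at 2.30 and OR4C13-OR4C12, with 13 positions, at 0.617 (0.328 to 1.05). The fifth place, at 75.1 Mb, is OR2AT4 alone. The stretches were delimited after the values were seen, so these differences are descriptions. All 10 clusters of the distal short arm and all 4 of the distal long arm were above their expectation, against 2 of 10 on the proximal long arm. Among windows of 100 kb of like GC, 55.8% were above theirs. The neighbouring sequence, up to 500 kb either side of a cluster, was also above 1 on the distal short arm (1.07 to 1.27) and the distal long arm (1.18 to 1.34). On the proximal long arm it ranged from 0.848 to 1.37.

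**Figure D2:**
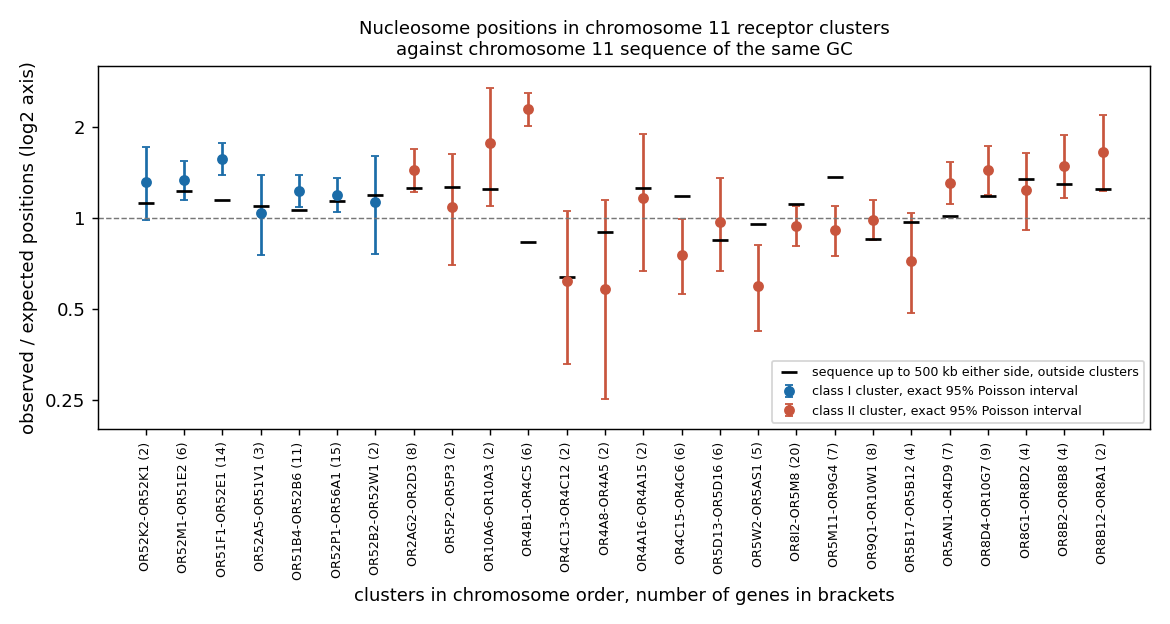
Observed over expected positions (vertical log2 axis) for the 26 clusters in chromosome order, with the number of genes in brackets. Points carry exact 95% Poisson intervals, class I in blue and class II in red, and black dashes give the sequence up to 500 kb either side; OR4B1-OR4C5 stands at 2.30 over flanks at 0.836, and OR5W2-OR5AS1 at 0.595.

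Class followed the same geography. Class I clusters, all on the distal short arm, held 1077 positions at 1.30 times the expectation (1.23 to 1.39), and class II clusters held 1523 at 1.18 (1.12 to 1.24), a log2 ratio of 0.15 (0.03 to 0.26). This difference was not stable: leaving out OR51F1-OR52E1 lowered it to 0.06 (-0.06 to 0.19), joining only neighbours under 25 kb apart to 0.10 (-0.06 to 0.25), and leaving out OR4B1-OR4C5 raised it to 0.28. Leaving out any 1 of OR5W2-OR5AS1, OR8I2-OR5M8, OR5M11-OR9G4 and OR9Q1-OR10W1 gave 0.10 to 0.11 with intervals that include 0. All 7 class I clusters and 10 of 19 class II clusters were above 1. On the distal short arm itself, where 3 class II clusters with 12 genes adjoin 7 class I clusters with 53 genes, the class II clusters stood at 1.41 (1.22 to 1.63), and the log2 ratio of class I to class II was -0.12 (-0.34 to 0.11). Where both classes share a stretch, the interval of their difference thus includes 0. Over the whole chromosome, class and position cannot be told apart.

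Among the 14 large clusters 8 had an interval above 1, 2 had one below 1 and 4 spanned 1. By ratio alone 8 of 14 lay above 1, a share near the 53.3% of all 1276 windows of 100 kb and the 55.8% of those of like GC. OR51F1-OR52E1, with 14 class I genes, held 279 positions at 1.57 (1.39 to 1.77), and OR2AG2-OR2D3, with 8 class II genes, held 146 at 1.44 (1.22 to 1.70). OR52P1-OR56A1, with 15 genes, stood at 1.20 (1.05 to 1.36), and OR51B4-OR52B6, with 11 genes, at 1.23 (1.09 to 1.39); the intervals of this pair overlap. On the proximal long arm OR8I2-OR5M8, the largest cluster with 20 genes, held 176 positions at 0.944 (0.810 to 1.09). OR5W2-OR5AS1, with 5 genes including OR5F1 and OR5I1, held 38 positions at 0.595 (0.421 to 0.816), and OR4C15-OR4C6 held 50 at 0.755 (0.560 to 0.995). OR5AN1-OR4D9, named for a receptor of musk odorants, was the large cluster of that stretch with an interval above 1, at 1.31 (1.11 to 1.53). Sequence up to 500 kb either side of the large clusters ranged from 0.836 to 1.37, and 10 of the 14 were above their own flanks.

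The cluster OR4B1-OR4C5, on the short arm near the centromere at chr11:48216810-48366465, stood apart from the rest. It held 248 positions where 108 were expected, a ratio of 2.30 (2.02 to 2.60), while its flanks stood at 0.836. In 1 of the 712 windows of like GC (0.140%) the ratio was higher. The cluster was singled out after its values were seen, as the highest of 26, and it is longer than these windows of 100 kb. Its rank among them is therefore a description only. The excess was uneven along the cluster. In the 11 windows of 10 kb from 48.21 to 48.32 Mb, which hold OR4B1, OR4X2, OR4X1 and OR4S1, 107 positions compared with 78.0 expected, and no window had more than 15. In the 5 windows from 48.32 to 48.37 Mb, which hold OR4C3 and OR4C5, 148 positions compared with 36.6 expected, a ratio of 4.04, with 18 to 42 in each window. The boundary between the portions was drawn from these counts, so their separation is a description only.

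The positions of OR4B1-OR4C5 were also unusually close together. Their median distance was 215 bp, against 637 bp over all clusters. Neighbours under 100 bp apart, less than the length of DNA in a whole nucleosome, made up 25.5%. That share was 11.5% over all clusters and 10.4% in the rest of chromosome 11. Merging positions under 100 bp apart left a log2 ratio of 0.92 in place of 1.20. In this cluster 84.9% of bases lay in 50-mers that occur once over the main chromosomes of the reference. Counting only those bases gave a log2 ratio of 1.15. Whether sequence shared less exactly, or with regions missing from these chromosomes, has a part in the excess was not tested. The crowding is plain in OR4C3 (chr11:48325292-48325521, plus strand, coding bases 271 to 500), where 4 called bases, in capitals, lie within 230 bp, at distances of 84, 56 and 36 bp.
OR4C3 bases 271 to 500: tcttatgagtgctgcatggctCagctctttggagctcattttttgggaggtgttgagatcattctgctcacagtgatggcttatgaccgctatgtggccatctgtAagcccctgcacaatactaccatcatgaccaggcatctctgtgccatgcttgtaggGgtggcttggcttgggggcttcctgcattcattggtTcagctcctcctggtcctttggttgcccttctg

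At the level of genes, 117 of 172 members (68.0%, Wilson interval 60.7 to 74.5) had at least 1 position in the coding sequence. The same share was 63.4% over all 1317 protein-coding genes of the chromosome, 62.7% over the 1145 other genes, and 63.2% over the 19 other genes with 1 coding exon of 800 to 1100 bp. For the 228 receptor genes of other chromosomes it was 64.0%. The 106 other genes of chromosome 11 with 1 coding exon of any length, with a median coding length of 952.5 bp, had a lower share of 43.4%. The members' share was thus near that of all genes and of receptors elsewhere, and above that of all genes with 1 coding exon. Their coding density of 1.55 per kb compared with 1.06 for the other genes of the chromosome and 1.36 for the receptors elsewhere.

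Of the members, 55 had no position, 49 had 1, 33 had 2, 14 had 3, 14 had 4, 3 had 5, 3 had 6 and 1 had 7, and the variance was 1.55 times the mean. A count of 0 allows up to 3 positions by counting error alone (a 1-sided limit, slightly below the upper end of the 2-sided Poisson intervals given elsewhere), more than the 0.508 to 1.67 expected in any single gene, so an empty exon is not readable gene by gene. Class I genes without a position numbered 11 of 55 (20.0%, 11.6 to 32.4) and class II genes 44 of 117 (37.6%, 29.4 to 46.6). By stretch, 13 of 67 genes on the distal short arm (19.4%) and 36 of 72 on the proximal long arm (50%, 38.7 to 61.3) were empty. Over all 1317 protein-coding genes of the chromosome 36.6% were empty. These shares do not take GC into account. From GC, 93.4 coding positions were expected in the 67 genes and 78.5 in the 72. By class, 1.47 per kb were expected in class I coding exons and 1.25 in class II. Uniqueness of the sequence varied among the genes: where under 90% of the coding exon was unique, 18 of 42 genes were empty (42.9%), against 37 of 130 elsewhere (28.5%), and the intervals overlap (29.1 to 57.8 and 21.4 to 36.7); its part in the empty exons was not tested. OR8B2 and OR8B3, with 43.4% of the exon unique, had none, and OR51A2 and OR51A4, with 46.3% unique, had 1 and none, so positions in these pairs are uncertain.

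**Figure D3:**
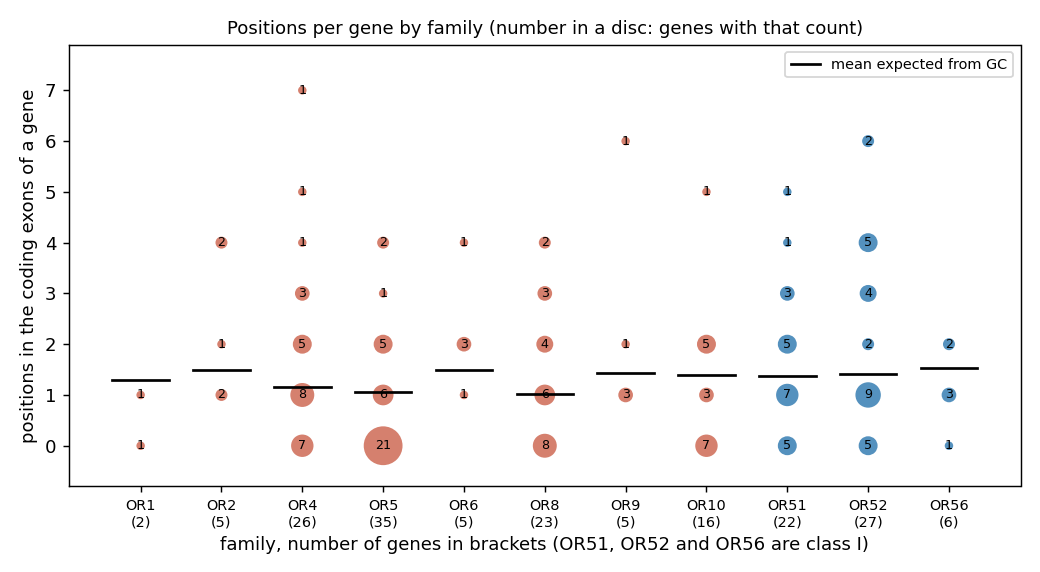
Number of called positions in the coding sequence of each gene (vertical axis) by family (horizontal axis, number of genes in brackets). A disc's area and number give the genes with that count, and the black bar is the family's mean expectation from GC; 21 of 35 OR5 genes sit at 0, while OR4C3 reaches 7.

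The ratio of coding positions to their expectation varied among families, and only OR52 and OR4 had intervals that excluded 1. Over all 1317 protein-coding genes of the chromosome 36.6% had no coding position. The OR5 family, the largest with 35 genes, all on the proximal long arm except OR5P2 and OR5P3, held 27 positions against 37.3 expected (0.725, 0.478 to 1.05), and 21 of its genes had none. The class I family OR52 held 57 positions in 27 genes (1.49, 1.13 to 1.93), with 5 genes empty, and OR4 held 43 in 26 genes (1.42, 1.03 to 1.92), with 7 empty. Of the OR4 positions, 22 lay in the 6 genes of OR4B1-OR4C5 (8.26 expected), and the other 20 OR4 genes held 21 against 21.9 expected (0.958, 0.593 to 1.46). OR51, the other large class I family, held 35 positions in 22 genes (1.16, 0.807 to 1.61), and OR8 held 31 in 23 genes (1.32, 0.896 to 1.87). OR10 (16 genes, 0.804) and OR56 (6 genes, 0.765) had ratios under 1 with intervals that span it. The 5 genes each of OR2, OR6 and OR9 all had at least 1 position, with 12, 11 and 11 in total. From GC 7.43, 7.50 and 7.21 were expected, and the intervals of their ratios include 1.

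The genes with most positions per kb were OR4C3 (7 positions, 7.70 per kb, 1.21 expected), OR9G1 (6, 6.54 per kb, 1.36 expected), OR52D1 (6, 6.27 per kb, 1.60 expected) and OR52B2 (6, 6.17 per kb, 1.64 expected). In OR9G1 they fell at coding bases 61, 152, 341, 417, 698 and 746, in OR52D1 at 67, 99, 268, 490, 747 and 771, and in OR52B2 at 75, 176, 438, 497, 624 and 683. Some of these bases lie closer together than the DNA of a whole nucleosome is long, as bases 67 and 99 of OR52D1 do. OR10D3, OR51D1 and OR4C5 held 5 each, and OR8K5, OR4S1 and OR8B12 held 4 each. OR8K5, on the proximal long arm, did so with 0.634 expected. Among genes without a position, OR10Q1 had the most GC-rich exon, at 57.5% with 1.66 expected, and OR10G4, a receptor of the smoky odorant guaiacol, had 54.0% GC but only 51.4% unique sequence. The coding sequences of the 5 genes of OR5W2-OR5AS1 held no position against 4.11 expected; this cluster was singled out among 14 after its values were seen.

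Several members are known outside the nose. OR51E2 and OR51E1, both class I receptors first studied in prostate and responsive to short-chain and related fatty acids, lie in the same cluster. OR51E2 had coding positions at bases 17, 890 and 943 and 15 positions in its 17684-bp body (13.6 expected), and OR51E1 at 287 and 850 with 15 in its body (12.8 expected). OR2AT4, described in skin keratinocytes and alone at 75.1 Mb, had coding positions at 16, 173, 574 and 934 and 17 in its body (12.1 expected). OR10A3 and OR5P3 had 2 coding positions each and OR1S2 had 1, while OR4D6 and OR51B5 had none. The annotated body of OR51B5 spans 202 kb of other receptor genes and held 167 positions against 142 expected. In the coding sequence none of these genes departed from its expectation beyond the counting error of a few positions, and the list says nothing of whether they were expressed in ARPE-19.

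Along the 171 coding exons in 1 piece, density changed abruptly at the start codon. The 150 bp before it held 14 positions (0.546 per kb) in 36.4% GC, 0.952 of the expectation (0.520 to 1.60). The first 150 bp of the exon held 54 positions (2.11 per kb) in 45.8% GC, 1.69 of the expectation (1.27 to 2.21). At the other end the last 150 bp held 26 (1.01 per kb, ratio 1.01) and the 150 bp after the coding sequence 13 (0.507 per kb, ratio 1.12). Relative to GC, the first 150 bp thus stood above the rest of the chromosome, while the other 3 windows had intervals that include 1. The windows were chosen after the profile was seen. Among the 117 genes with a coding position, the first lay at a median of 263 bp from the start codon (quartiles 91 and 450), and in 46 it lay within 150 bp. Receptors of other chromosomes gave 0.533 per kb before the start codon and 1.60 per kb in the first 150 bp. Their rise was less abrupt, with 0.889 per kb (0.426 to 1.63) in the first 50 bp and 2.58 (1.73 to 3.70) from 50 to 100 bp. On chromosome 11 the first 100 bp of the exon held 3.82 per kb in class I and 1.55 in class II. The 100 bp before the start codon held 0.727 and 0.259. These class values carry no interval and do not take GC into account.

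**Figure D4:**
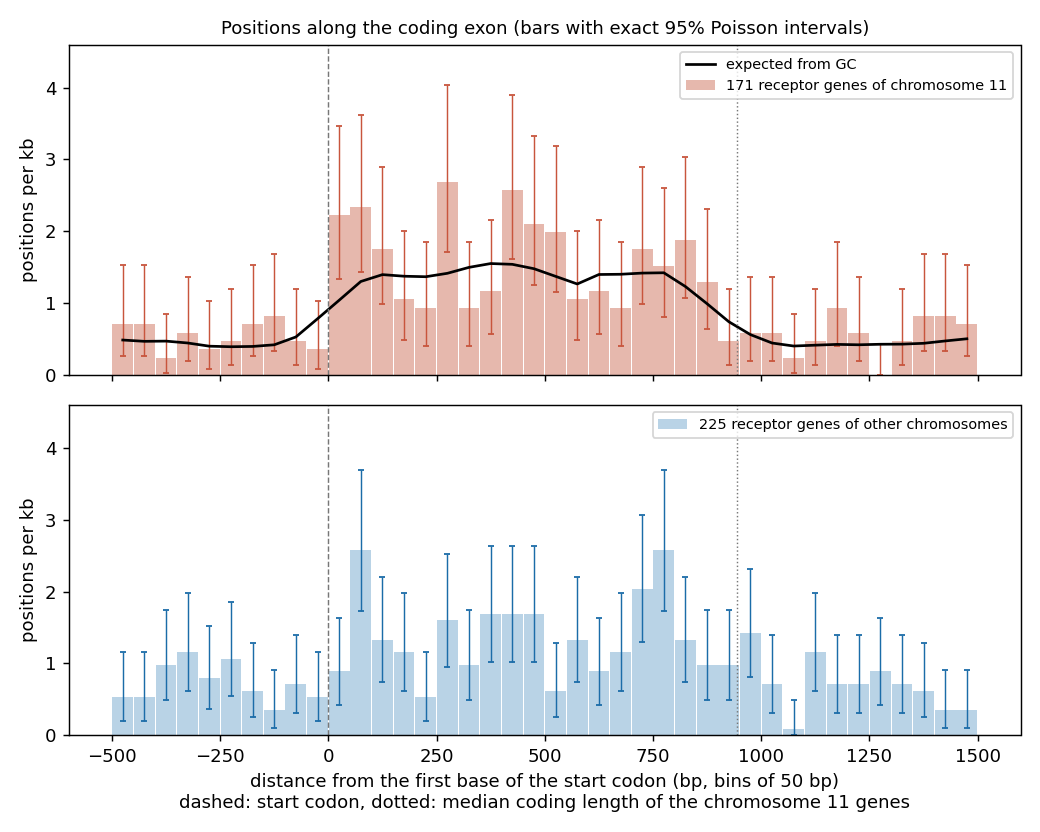
Positions per kb (vertical axis) in 50-bp bins by distance from the first base of the start codon (horizontal axis), with exact 95% Poisson intervals. The upper panel has 171 genes of chromosome 11 with the GC expectation as a black line, and the lower panel 225 receptor genes of other chromosomes; the upper bars step from 0.351 to 2.22 at the start codon and reach 2.69 between 250 and 300 bp.

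Inside the exon the profile was uneven. Bins of 50 bp ranged from 0.936 to 2.69 positions per kb, with maxima at 50 to 100 bp (2.34), 250 to 300 bp (2.69, 1.71 to 4.04, from 23 positions) and 400 to 450 bp (2.57). Of 18 bins 4 had an interval above the GC expectation and none had one below it. The bins' values did not follow their GC expectation (Pearson r = -0.02, Spearman rho = -0.01 over 18 bins). They had a weak likeness to the profile of receptors on other chromosomes (r = 0.388, rho = 0.415), and class I to class II (r = 0.318), where bins share related sequence and a common start codon. The exons align only by length from the start codon, and each bin rests on 8 to 23 positions.

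The clusters had nearly the same nucleosome repeat as the rest of the chromosome. Distances between neighbouring positions had a median of 637 bp (quartiles 205 and 1621, 2574 pairs), against 782 bp (281 and 1852) in the rest of the chromosome at like GC and 561 bp in all of the rest. The most frequent distance above 100 bp was 185 bp in the clusters, 179 bp at like GC and 183 bp in all of the rest. Distances between all pairs of positions were smoothed over 41 bp. The highest value was then taken in each of 4 windows: 130 to 260, 300 to 460, 480 to 650 and 660 to 840 bp. These maxima lay at 186, 372, 556 and 738 bp in the clusters and at 187, 377, 560 and 748 bp outside. The windows lie around successive multiples of 1 repeat length, so a maximum near each multiple was partly fixed by them. Pairs of neighbours 160 to 210 bp apart made up 9.71% in the clusters (Wilson interval 8.63 to 10.9), 9.06% at like GC (8.81 to 9.31) and 12.6% in all of the rest. Neighbours under 60 bp apart made up 8.51% (7.49 to 9.65) and 7.57% at like GC (7.34 to 7.80). Class I clusters, the denser group, had a median distance of 581 bp and class II clusters 674 bp.

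**Figure D5:**
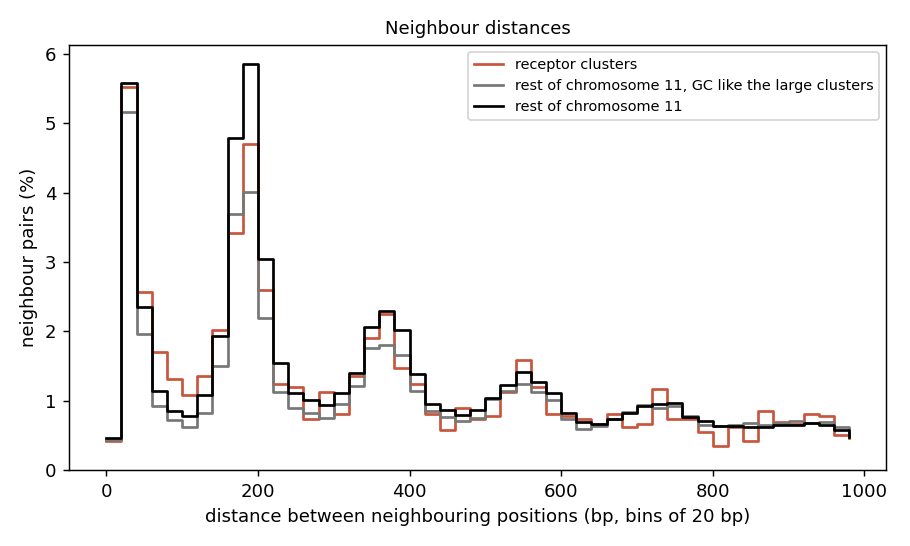
Share of neighbour pairs (vertical axis, %) by distance (horizontal axis, bins of 20 bp) for the receptor clusters, the rest of chromosome 11, and the rest with a GC content like that of the large clusters. All 3 lines have a peak near 180 bp and a second near 30 bp; for distances from 160 to 210 bp the clusters (9.71%) lie next to the sequence of like GC (9.06%).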

How the data were processed

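Chromatin of 2 batches of ARPE-19 was profiled by MNase-seq. The authors deposited 1 list of single-base positions for the whole series, a unit other than counts, CPM or signal: each entry is a chromosome, start and end, with no score and no batch. Reads were aligned with Bowtie2 to hg38 (GRCh38), per the submitters' processing notes; the position caller, its threshold, the handling of duplicates and the pooling of batches are not given in the sources used here. The read depth is therefore unknown.

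Genes came from GENCODE release 44, with 1 transcript each (161 MANE Select, 11 canonical). The start column was read as the called base. Each base of the clusters and lone genes was assigned to coding exon, noncoding exon part, intron, other gene body or space between cluster genes, in that order. As an exception, intron bases inside an exon of any other member transcript went to other gene body. That compartment held 191 positions at a ratio of 1.30 (1.12 to 1.49). Expected counts used GC of 200 bp in 2% bins from chromosome 11 outside the clusters. Intervals are exact Poisson for counts, exact conditional (Clopper-Pearson) for ratios of counts and Wilson for shares, all at 95%, and cover counting error only; neighbouring positions are not independent. No p-value was computed, since the list has no replicates. A base was unique where the 50-mer around it occurs once, on either strand, over chromosome 11 and the other main chromosomes of the reference. Genes were named as the fullest and the longest empty member of each cluster of 5 or more, the 10 densest, the cluster ends and 8 receptors known outside the nose; OR51A2, OR51A4, OR5AN1, OR5F1, OR5I1, OR8B2, OR8B3, OR9Q1, OR4X1 and OR4X2 were named after their values were seen. Members and lists were chosen with earlier results of these data known. Scripts used Python 3.11.15, numpy 2.4.6, scipy 1.17.1 and pandas 2.3.3, and were tested on simulated data.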

Additional observations from a re-analysis of the deposited data

How the results depend on the processing

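No paired analysis was possible because the list does not tell the batches apart, and for the same reason no replicate could be left out. Of 302 alternative values for 20 results, 269 stayed within the interval of the value reported (for counts of genes, within 1.5 times it), 28 moved and 5 changed sign. A change of sign was counted only where the interval of the value reported excluded 0. Coding against space, whose interval included 0, also changed sign with GC of 1000 bp and was counted as moved. All 5 counted changes came from using no GC expectation. That set log2 ratios against the rest of the chromosome to -0.18 for the clusters and -0.20 for introns. It set noncoding exon parts to -0.14, the space to -0.29 and clusters against flanks to -0.14. Under it coding exons went to 0.82, coding against space to 1.11 and coding against introns to 1.02. Class I against class II went to 0.36. With GC of 1000 bp, coding exons rose to 0.55, coding against space to 0.34 and coding against introns to 0.40, and the space was 0.22: the wider window reads the AT-rich flanks of an exon into its expectation, so whether coding exons exceed the space depends on this width. The GC curve of all chromosomes gave 0.15 for the clusters and 0.15 for the space. Joining neighbours under 25 kb gave 0.13 for clusters against flanks. Without OR4B1-OR4C5 the clusters were at 0.23, the space at 0.20, class I against class II at 0.28 and clusters against flanks at 0.15. The 95% interval moved across 0 in 3 of 24 alternatives for coding exons, 5 for introns, 6 for class I against class II and 2 for intact genes against pseudogenes. Without OR9Q1-OR10W1 the introns were at 0.43. The main neighbour distance was 178 bp when smoothed over 21 bp. The stretches, OR4B1-OR4C5 and the exon ends as results, and leaving reference windows under 50% unique out, were chosen after seeing the data; the proximal long arm kept a ratio under 1 in all 8 alternatives (0.618 to 0.948; in 6 of them the interval lay below 1), and the first 150 bp of the exon one above 1 (1.56 to 2.39). The GC reference includes 4.94 Mb of such windows with 578 positions against 3684 expected. With unknown depth, an empty stretch is not an absence of nucleosomes.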
